A study of Mus musculus with 9 samples.

Results

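The mitosis and spindle genes described here are 50 genes whose products enter, run or end cell division: cyclins and Cdk1, mitotic kinases, spindle checkpoint and kinetochore proteins, mitotic kinesins, cytokinesis factors, chromosome structure proteins and 2 transcription factors that drive this programme. They were chosen by name, and all 50 were found among the 35020 gene names of the deposited table and passed the filter on low values, which left 17199 genes. RNA was sequenced from hepatic stellate cells (liver pericytes that store vitamin A), sorted from mice on the C57BL/6J background whose livers had been injured with 6 doses of carbon tetrachloride (CCl4) given every 3 days, and collected 2 days after the last dose. All 9 libraries came from mice with a floxed Yap1 gene. The control group (5 libraries: LYT004, LYT005, LYT014, LYT015 and LYT017) lacked Cre, and the YAP-deleted group (4 libraries: LYT006, LYT008, LYT013 and LYT016) carried Cre under the promoter of Lrat, a gene of retinoid storage that is active in stellate cells. Mice with Cre alone and uninjured livers were not analysed here, so an effect of Cre and one of Yap1 loss cannot be told apart. The labels do not say that each library was a separate mouse. The p-values therefore measure the spread between these libraries, which may be technical.

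As background, a cell enters mitosis when cyclin B bound to Cdk1 becomes active, the spindle then attaches to kinetochores, and the checkpoint holds the anaphase promoting complex until every chromosome is attached. Cdc20 then switches that complex on, separase cuts cohesin, and the midzone and contractile ring divide the cell. Transcripts of these proteins are low in resting cells and peak in the second part of the cell cycle. Their promoters often hold CCAAT boxes bound by NF-Y and a cell cycle homology region (CHR, TTTGAA or TTCGAA) bound by the MuvB proteins, which form the repressive DREAM complex in resting cells and work with B-MYB (Mybl2) and Foxm1 in dividing cells. Stellate cells are mostly quiescent in a healthy liver and divide when they are activated by injury.

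The RefSeq table of promoters (GRCm38.p6) covered 42 of the 50 members, each from 250 bases before to 50 bases after the gene's start. The windows below, 150 bases before and 10 after the start, are shown because they carry these elements in genes that the values below turn on, and because Bub3 and Pttg1 behaved differently from the rest. They read 5′ to 3′ on the gene's own strand, and capitals mark every match, on either strand, to the CCAAT box, to either form of the CHR (TTTGAA or TTCGAA), to the E2F site GCGGGAA or to the further E2F-like site TTGGCGC.
Ccnb2, chr9:70421545-70421704, minus strand: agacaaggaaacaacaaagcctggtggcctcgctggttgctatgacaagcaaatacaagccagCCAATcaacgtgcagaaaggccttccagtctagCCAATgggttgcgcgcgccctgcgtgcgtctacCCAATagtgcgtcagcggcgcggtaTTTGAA
Cdk1, chr10:69352903-69353062, minus strand: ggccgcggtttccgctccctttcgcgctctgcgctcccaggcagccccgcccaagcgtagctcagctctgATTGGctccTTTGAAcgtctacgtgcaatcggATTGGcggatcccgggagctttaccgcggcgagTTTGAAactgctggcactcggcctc
Cdc20, chr4:118437334-118437493, minus strand: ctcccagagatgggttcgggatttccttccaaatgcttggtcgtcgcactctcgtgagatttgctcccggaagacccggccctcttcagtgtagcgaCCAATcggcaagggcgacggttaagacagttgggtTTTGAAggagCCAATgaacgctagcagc
Top2a, chr11:99024180-99024339, minus strand: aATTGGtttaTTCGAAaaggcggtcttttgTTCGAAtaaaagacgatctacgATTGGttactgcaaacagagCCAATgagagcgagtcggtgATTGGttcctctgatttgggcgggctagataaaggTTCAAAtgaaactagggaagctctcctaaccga
Ccnb1, chr13:100786477-100786636, minus strand: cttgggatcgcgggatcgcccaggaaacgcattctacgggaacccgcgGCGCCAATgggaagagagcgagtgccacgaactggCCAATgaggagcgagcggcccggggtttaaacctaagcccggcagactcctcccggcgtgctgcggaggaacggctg
Bub3, chr7:131560220-131560379, plus strand: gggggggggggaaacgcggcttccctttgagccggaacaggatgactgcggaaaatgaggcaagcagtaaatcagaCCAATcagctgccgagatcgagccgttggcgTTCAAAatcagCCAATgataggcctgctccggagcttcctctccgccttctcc
Pttg1, chr11:43425972-43426131, minus strand: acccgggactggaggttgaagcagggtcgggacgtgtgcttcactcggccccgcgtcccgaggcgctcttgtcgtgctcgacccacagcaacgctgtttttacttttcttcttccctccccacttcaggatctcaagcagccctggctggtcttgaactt

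Ccnb2 held 3 CCAAT boxes and a TTTGAA in this window, Cdk1 2 of each, and Top2a 4 CCAAT boxes, 1 TTTGAA and 2 TTCGAA. Ccnb1 held 2 CCAAT boxes and no TTTGAA or TTCGAA. Bub3 carried 2 CCAAT boxes and a TTTGAA, and Pttg1 held none of the searched motifs. The printed Pttg1 window lay inside the gene as annotated by GENCODE, whose start on the minus strand is at 43426251. It therefore does not show the bases before that start, and the lack of motifs in it is not read as a trait of the Pttg1 promoter. Nearly all of the printed Bub3 window likewise lay after its GENCODE start (131560222). In the full windows, TTTGAA was present in 29 of the 42 members (69.0%), against 20.2% of all 27025 genes in the promoter table and 15.5% of the tested genes. Within 50 bases of the start it was present in 27 members (64.3%), against 5.72% of all genes in the table. CCAAT was present in 28 members (66.7%, against 41.1%), and CCAAT with TTTGAA in 24 (57.1%, against 7.97%). At least 2 CCAAT boxes were present in 17 members (40.5%, against 13.3%), and a pair on the same strand spaced 31 to 34 bases apart in 6 (14.3%, against 1.04%). TTCGAA was present in 4 members (9.52%, against 1.80%), TTGGCGC in 6 (14.3%, against 2.85%) and GCGGGAA in 2 (4.76%, against 5.29%). TTCGAA reads the same on both strands, and the reverse complement of TTGGCGC ends in CCAA and so can share bases with a CCAAT box, as it does in Ccnb1. The full windows of 7 members held none of the 5 motifs. These matches describe letters and are not measured binding.

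**Figure D1:**
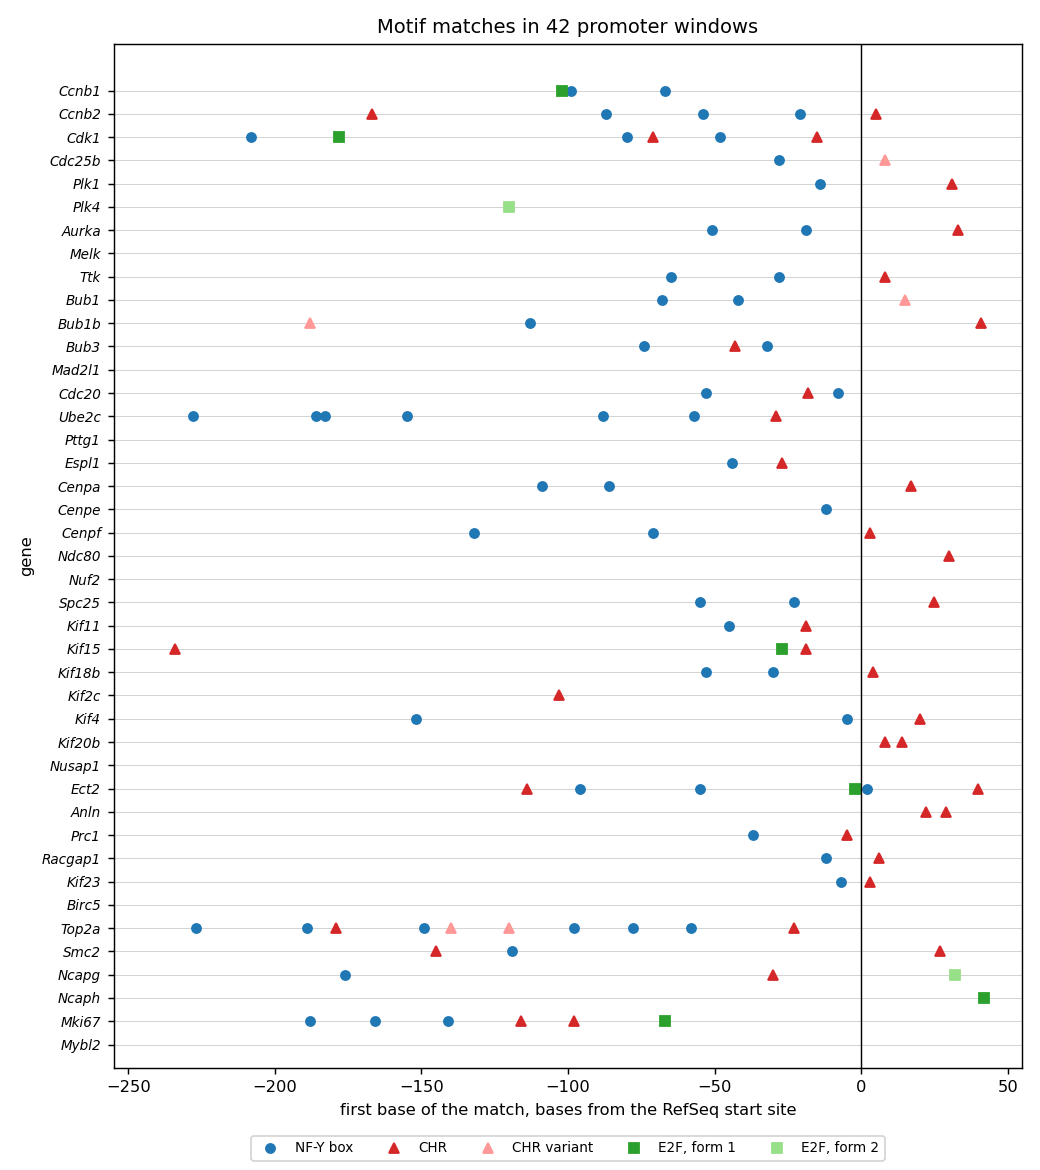
Positions of matches to the CCAAT box, both CHR forms and both E2F-like sites on either strand in the promoter windows of the 42 members in the RefSeq table; the horizontal axis is the distance from the gene's start in bases and each row is a gene. TTTGAA matches gather near the start, where 27 of the 42 members hold one, and CCAAT matches lie mostly before it.

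Depth, as total recovered counts, was 14051364 in LYT017 and 31812215 in LYT013, the extremes, and 16278 to 17337 genes were detected per library. Values below are normalised counts, in which each recovered count is divided by its library's size factor. Yap1 (chromosome 9, 7931999 to 8004596 on GRCm38), the deleted gene, had 2902, 2915, 3653 and 3551 normalised counts in the 4 controls, 642, 648 and 645 in the 3 YAP-deleted libraries, 618 in LYT014 and 2529.8 in LYT013. The library labelled control LYT014 and the library labelled YAP-deleted LYT013 thus held Yap1 levels that went against their labels, and they are given apart wherever values are listed by library. Group means, differences and tests on 9 libraries include them under their labels. Below, "the 4 controls" are LYT004, LYT005, LYT015 and LYT017 and "the 3 YAP-deleted libraries" are LYT006, LYT008 and LYT016, always in these orders. As labelled, Yap1 differed by −1.30 ± 0.54 log2-like units (SE, limma adjusted p = 0.649, and p = 0.0794 in an exact two-sided permutation test over 126 regroupings).

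The members varied by library far more than by group. LYT004, LYT005 and LYT008, which are 2 controls and 1 YAP-deleted library, were the 3 highest libraries for 48 of the 50 members, an order that 6.09% of all tested genes shared. LYT005 was the highest library for 49 members and lay above LYT004 for all 50. LYT014 was the fourth highest for 47, and LYT006 the fifth for 34. Among these 48 members the third highest library held 1.70 to 4.26 times the fourth. The lowest was LYT013 for 25 members, LYT016 for 14 and LYT017 for 7. The highest library held a median of 61.5 times the lowest over the members, against 2.02 times over all tested genes. The spread inside the labelled groups was above the 99th percentile of all tested genes for 43 members.

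Summed over the 50 members, the normalised counts were 52790.4, 72769, 6715 and 6481 in the 4 controls, 6962, 53929 and 5762 in the 3 YAP-deleted libraries, 18893 in LYT014 and 5818 in LYT013. These sums were 0.391% of all counts in LYT005, 0.292% in LYT004 and 0.290% in LYT008, 0.103% in LYT014, and between 0.0301% (LYT016) and 0.0368% (LYT006) in the other libraries. As a percent of its own level in LYT005, the median member stood at 72.4% in LYT004 and 73.2% in LYT008, 23.6% in LYT014, 4.31% in LYT006, 3.57% in LYT015, 2.59% in LYT017, 2.10% in LYT016 and 2.01% in LYT013. Both labels were found at the high and at the low end. In bulk RNA, fewer dividing cells and less of these transcripts per cell cannot be told apart.

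**Figure D2:**
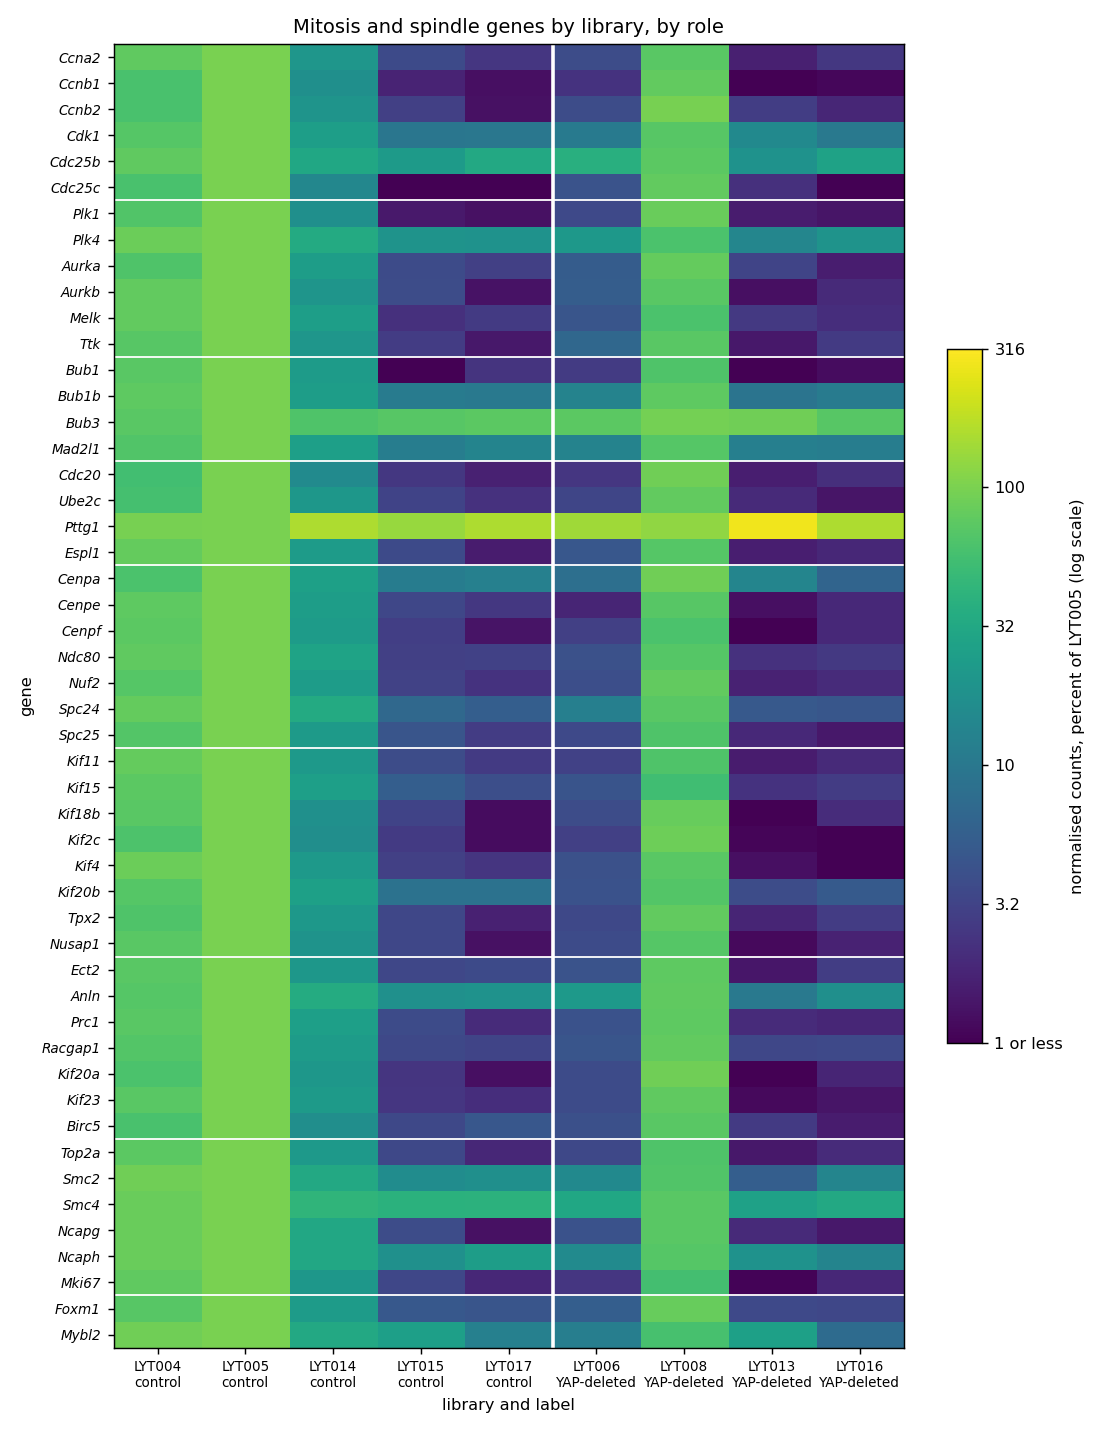
Heat map of the 50 members (rows, grouped by role) in the 9 libraries (columns, with their labels); colour is the normalised count as a percent of the member's level in LYT005, on a log scale. LYT004, LYT005 and LYT008 are bright throughout, LYT014 is intermediate with a median of 23.6%, and the medians of the other 5 libraries are 2.01% to 4.31%, although Bub3 and Pttg1 are bright there too and Smc4 and a few others are intermediate.

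Cyclins and Cdk1, whose complexes drive entry into mitosis, followed this order. Ccnb1 (cyclin B1, chromosome 13, 100778650 to 100786570 on GRCm38) had 779, 1285, 22.6 and 16.1 normalised counts in the 4 controls, 29.98, 1009 and 14.2 in the 3 YAP-deleted libraries, 227 in LYT014 and 2.39 in LYT013. Its highest library, LYT005, and its lowest, LYT013, where only 4 reads were counted, are a control and a YAP-deleted library, but YAP-deleted LYT008 lay above control LYT004. Ccna2 (cyclin A2, which acts from S phase into early mitosis) had 1769, 2259, 81.98 and 56.4 normalised counts in the 4 controls, 86.5, 1634 and 57.6 in the 3 YAP-deleted libraries, 465 in LYT014 and 37.7 in LYT013. Again the 3 high values came from both groups. Cdk1 itself (chromosome 10, 69335146 to 69352938) had 1755, 2556, 242 and 251 normalised counts in the 4 controls, 265, 1799 and 259 in the 3 YAP-deleted libraries, 649 in LYT014 and 389 in LYT013. It was less extreme than its cyclins: LYT006, LYT015, LYT016 and LYT017 held 242 to 265 counts, and LYT013 lay above them. Cdc25b, a phosphatase that activates Cdk1, had 557, 714, 165 and 228 normalised counts in the 4 controls, 269.9, 528 and 196 in the 3 YAP-deleted libraries, 218 in LYT014 and 135 in LYT013, the narrowest range in this class at 5.28-fold. Ccnb2 spanned 77.2-fold, and Cdc25c, a second activating phosphatase, ran from 213 counts in LYT005 to 0 reads in LYT016, at least 85.3-fold against a floor of 3 reads in that library.

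Mitotic kinases followed the same order. Plk1, which acts in centrosome maturation, chromosome attachment and cytokinesis, had 754, 1146, 16.96 and 14.8 normalised counts in the 4 controls, 40.4, 972 and 15.9 in the 3 YAP-deleted libraries, 201 in LYT014 and 17.95 in LYT013. LYT006, at 40.4, stood somewhat above the 4 other low libraries. Aurkb, the kinase of the chromosomal passenger complex, had 566, 710.1, 27.3 and 9.40 normalised counts in the 4 controls, 39.2, 517 and 14.2 in the 3 YAP-deleted libraries, 143 in LYT014 and 8.98 in LYT013. Its 3 highest libraries again came from both groups, with control LYT014 as the fourth. Aurka (centrosome and spindle), Ttk (the checkpoint kinase Mps1) and Melk spanned 62.6, 69.4 and 46.9-fold between their highest and lowest libraries. Plk4, which licenses centriole duplication, spanned 7.19-fold, with 102 counts in its lowest library, LYT013.

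In the spindle checkpoint, Bub1 had 491, 683, 6.60 and 16.1 normalised counts in the 4 controls, 18.5, 439 and 8.34 in the 3 YAP-deleted libraries, 161 in LYT014 and 4.19 in LYT013, a 163-fold span. Bub1b (BubR1) had 1197, 1581, 172 and 163 normalised counts in the 4 controls, 209, 1186 and 175 in the 3 YAP-deleted libraries, 388 in LYT014 and 144 in LYT013, an 11.01-fold span. Mad2l1 (Mad2), which forms the inhibitor of Cdc20 with BubR1, had 593, 894, 102 and 121 normalised counts in the 4 controls, 118, 623 and 103 in the 3 YAP-deleted libraries, 230.3 in LYT014 and 108 in LYT013. Bub1b and Mad2l1 held over 100 counts in every library, whereas Bub1 was under 20 in LYT006, LYT013, LYT015, LYT016 and LYT017.

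Bub3, the fourth checkpoint protein, did not share the pattern. Bub3 (chromosome 7, 131560222 to 131571895) had 964, 1315, 938 and 986 normalised counts in the 4 controls, 983, 1259 and 930.2 in the 3 YAP-deleted libraries, 844 in LYT014 and 1183 in LYT013. Its libraries lay within 1.56-fold of each other, with a coefficient of variation of 15.8%, the narrowest span of all members. LYT005 and LYT008 were still its highest libraries, followed by LYT013.

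Of the genes that trigger anaphase and exit, Cdc20 (the activator of the anaphase promoting complex) had 962, 1729, 44.3 and 29.5 normalised counts in the 4 controls, 42.7, 1587 and 37.5 in the 3 YAP-deleted libraries, 270.4 in LYT014 and 28.1 in LYT013. LYT008 was close to LYT005, and 1.65 times LYT004. Ube2c, the ubiquitin-conjugating enzyme of that complex, had 729, 1255, 39.6 and 28.2 normalised counts in the 4 controls, 41.5, 1004 and 17.5 in the 3 YAP-deleted libraries, 265 in LYT014 and 25.1 in LYT013. Espl1 (separase, which cuts cohesin) spanned 64.7-fold, from 695 counts in LYT005 to 10.7 in LYT017. These 3 kept the order of the other members.

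Pttg1 (securin, the inhibitor of separase; chromosome 11, 43420250 to 43426251) ran the other way. It had 374, 386, 507 and 596 normalised counts in the 4 controls, 539.7, 469 and 602 in the 3 YAP-deleted libraries, 607 in LYT014 and 1073 in LYT013. Its lowest libraries were LYT004, LYT005 and LYT008, the libraries where nearly every other member was highest, and LYT013 held the most. Separase (Espl1) was thus highest in the libraries where its inhibitor was lowest.

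At kinetochores and centromeres, Ndc80, the microtubule-binding subunit of the outer kinetochore, had 345, 445, 13.2 and 13.4 normalised counts in the 4 controls, 18.5, 311 and 11.7 in the 3 YAP-deleted libraries, 124 in LYT014 and 10.2 in LYT013. Cenpa, the centromeric histone variant, had 739, 1188, 132 and 146 normalised counts in the 4 controls, 98.02, 1080.5 and 76.8 in the 3 YAP-deleted libraries, 315 in LYT014 and 163 in LYT013. Cenpf, a large protein of the outer kinetochore, had 1475, 1993, 58.4 and 26.9 normalised counts in the 4 controls, 59.97, 1246 and 38.4 in the 3 YAP-deleted libraries, 469 in LYT014 and 16.2 in LYT013. All 3 were lowest in a YAP-deleted library, LYT013 or LYT016, and control LYT017 held 13.4 counts of Ndc80 and 26.9 of Cenpf. The other Ndc80 complex subunits, Nuf2, Spc24 and Spc25, spanned 57.1, 21.4 and 69.7-fold, and the motor Cenpe 78.8-fold.

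Among mitotic kinesins and spindle assembly factors, Kif11 (Eg5, which pushes spindle poles apart) had 1061, 1315, 49.9 and 34.9 normalised counts in the 4 controls, 40.4, 848 and 25.9 in the 3 YAP-deleted libraries, 294 in LYT014 and 20.3 in LYT013. Kif2c (MCAK, which depolymerises microtubules at centromeres) had 494, 776, 20.7 and 9.40 normalised counts in the 4 controls, 23.1, 682 and 6.67 in the 3 YAP-deleted libraries, 134 in LYT014 and 8.38 in LYT013. Tpx2, which activates Aurora A on the spindle, had 1651, 2540.1, 85.8 and 42.98 normalised counts in the 4 controls, 88.8, 2017 and 70.1 in the 3 YAP-deleted libraries, 546 in LYT014 and 46.1 in LYT013. In LYT008 the level of Kif2c and Tpx2 was above that in LYT004, and that of Kif11 below it. Kif15, Kif18b, Kif4, Kif20b and Nusap1 spanned 26.1 (Kif20b) to 135-fold (Kif18b).

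Cytokinesis and midzone genes were high in the same 3 libraries. Prc1, the bundler of midzone microtubules, had 2492, 3424, 128 and 69.8 normalised counts in the 4 controls, 148, 2623 and 64.2 in the 3 YAP-deleted libraries, 875 in LYT014 and 68.8 in LYT013. Racgap1, which with Kif23 forms the centralspindlin complex, had 1677, 2462, 84.8 and 80.6 normalised counts in the 4 controls, 113, 1972 and 88.4 in the 3 YAP-deleted libraries, 576 in LYT014 and 83.8 in LYT013. Birc5 (survivin, of the chromosomal passenger complex) had 324, 536, 18.8 and 25.5 normalised counts in the 4 controls, 21.9, 387 and 8.34 in the 3 YAP-deleted libraries, 91.5 in LYT014 and 14.4 in LYT013. The 5 libraries below LYT014 were all under 150 counts for each of these 3. Kif20a, the midzone motor MKLP2, had 1702, 2741, 66.9 and 34.9 normalised counts in the 4 controls, 101, 2476 and 49.2 in the 3 YAP-deleted libraries, 571 in LYT014 and 25.1 in LYT013, a span of 5.24 log2-like units and the third widest of the members. Ect2, which activates RhoA at the division site, and Kif23 spanned 70.7 and 85.7-fold.

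Anln (anillin, a scaffold of the contractile ring that binds actin and septins) kept a high level everywhere. It had 2874, 4133, 743 and 775 normalised counts in the 4 controls, 932, 3189 and 721 in the 3 YAP-deleted libraries, 1440.5 in LYT014 and 421 in LYT013. Its lowest library, LYT013, was 9.81-fold below its highest, and LYT006, LYT015, LYT016 and LYT017 held 721 counts or more.

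Chromosome structure genes included Mki67 and Top2a, the members with the widest spans on the log2-like scale (5.73 and 5.40 units). As a ratio of normalised counts they spanned 94.3 and 68.6-fold, and Ccnb1 was wider at 537-fold. Mki67 (the Ki-67 protein that coats mitotic chromosomes, chromosome 7, 135689784 to 135716361) had 4991, 6434, 219 and 121 normalised counts in the 4 controls, 160.3, 3643 and 122 in the 3 YAP-deleted libraries, 1351 in LYT014 and 68.2 in LYT013. Top2a (topoisomerase II alpha, chromosome 11, 98992943 to 99024189) had 4437, 5956, 205 and 114 normalised counts in the 4 controls, 209, 3868 and 122 in the 3 YAP-deleted libraries, 1314 in LYT014 and 86.8 in LYT013. In both genes the low controls LYT015 and LYT017 lay within the range of the low YAP-deleted libraries LYT006, LYT013 and LYT016 or just above it, and LYT014 stood between the 2 levels. Condensin subunits differed in how far they went. Smc4 had 2949, 3487, 1378 and 1422 normalised counts in the 4 controls, 1074, 2550.02 and 1121 in the 3 YAP-deleted libraries, 1502 in LYT014 and 939 in LYT013, a 3.71-fold span. Its partner Smc2 had 1272, 1417, 234 and 251 normalised counts in the 4 controls, 219, 943 and 194 in the 3 YAP-deleted libraries, 453 in LYT014 and 78.4 in LYT013, an 18.1-fold span, with LYT013 far under the rest. The regulatory subunits Ncaph and Ncapg spanned 7.48 and 76.7-fold.

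The transcription factors of this programme showed the pattern at different levels. Foxm1 had 1338, 1870.4, 91.4 and 85.96 normalised counts in the 4 controls, 105, 1551 and 63.4 in the 3 YAP-deleted libraries, 444 in LYT014 and 66.4 in LYT013. Mybl2 (B-MYB) had 89.5, 99.3, 25.4 and 12.1 normalised counts in the 4 controls, 11.5, 58.7 and 7.51 in the 3 YAP-deleted libraries, 32.1 in LYT014 and 26.3 in LYT013, the lowest level of any member in LYT005, with a span of 1.62 log2-like units. LYT008 was the second highest library for Foxm1 and the third for Mybl2.

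**Figure D3:**
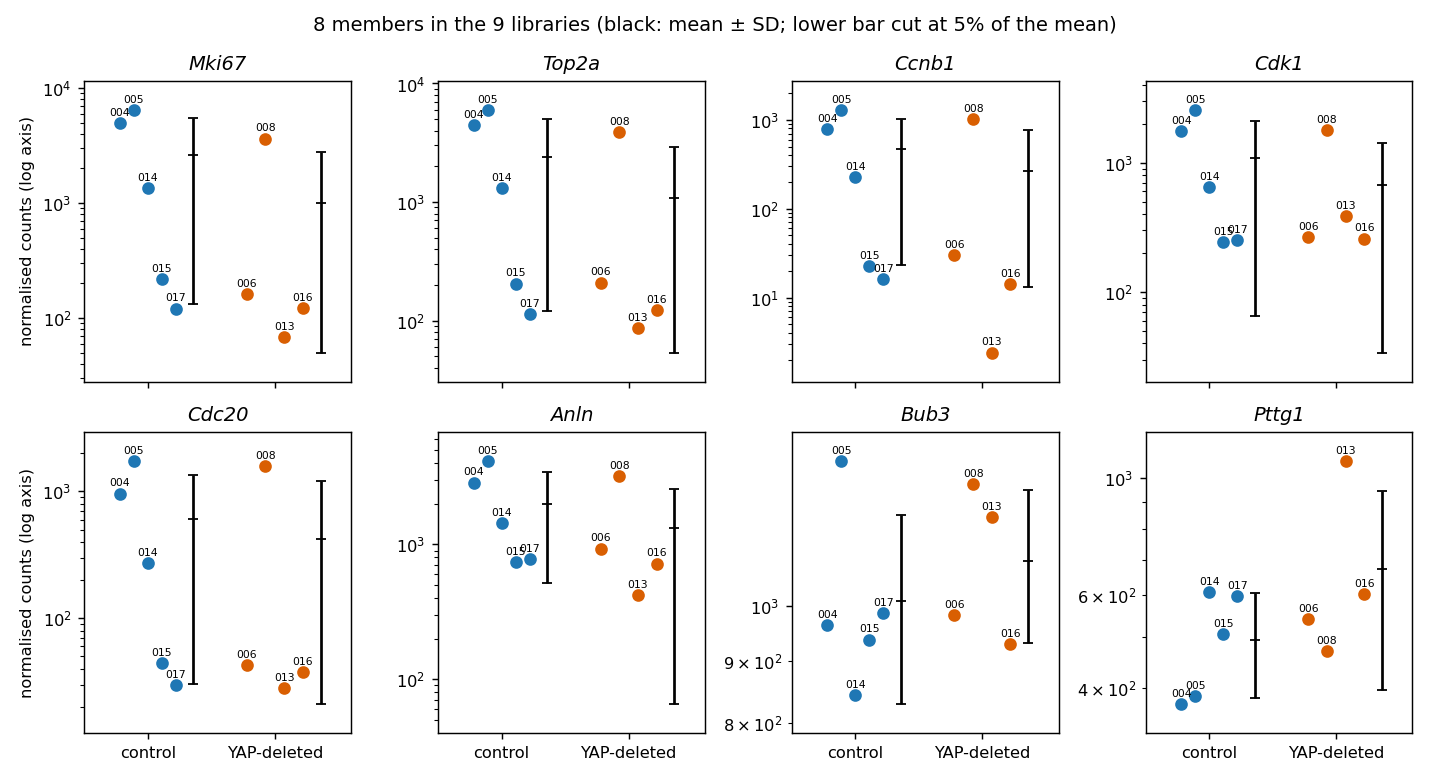
Normalised counts (log axis) of Mki67, Top2a, Ccnb1, Cdk1, Cdc20, Anln, Bub3 and Pttg1 in the libraries labelled control (blue) and YAP-deleted (orange), 1 point per library with the last digits of its code, and in black the mean ± SD of each group. For the first 6 genes each group holds libraries at both ends, Bub3 stays within 1.56-fold, and Pttg1 is highest in LYT013 at 1073 counts.

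Levels were compared between genes as normalised counts per kilobase of the longest protein-coding transcript. In LYT005, Top2a (1141), Prc1 (1132), Cdc20 (965), Anln (898) and Ccnb2 (880.4) led, and Mybl2 was lowest (27.2). In LYT017, a control with low values, Pttg1 (356), Smc4 (329.6), Bub3 (289), Anln (168) and Cenpa (99.9) led. Of these 5, Bub3, Pttg1 and Smc4 spanned 1.56, 2.87 and 3.71-fold across libraries.

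The 3 highest libraries differed in which members led. LYT008 held more than LYT004 for 25 of the 50 members. Against LYT005 it held more for 1 member, Pttg1. The ratio of LYT008 to LYT004 was highest for Cdc20 (1.65), Ccnb2 (1.61), Cenpa (1.46), Kif20a (1.46), Kif2c (1.38) and Ube2c (1.38). By class it was above 1 for all 7 cytokinesis genes (median 1.11), 3 of 4 anaphase genes (median 1.32, with Espl1 at 0.848) and 4 of 6 cyclin and Cdk1 genes (median 1.16). It was above 1 for 2 of 7 kinetochore genes (median 0.943) and 3 of 8 kinesin and spindle genes (median 0.965). For mitotic kinases it was above 1 in 3 of 6 (median 0.969), and for spindle checkpoint genes in 2 of 4 (median 1.02). It was below 1 for all 6 chromosome structure genes (median 0.845), with Smc2 at 0.741 and Mki67 at 0.730. The 2 transcription factors went different ways, with Mybl2 at 0.656 and Foxm1 at 1.16. Among 15 DNA replication genes (MCM helicase subunits, nucleotide synthesis enzymes and licensing factors) none was above 1 (median 0.731), with Rrm2 at 0.745, Mcm6 at 0.643 and Cdc6 at 0.619. The ratio of Cdc20 to Top2a was 0.410 in LYT008, 0.290 in LYT005 and 0.217 in LYT004, and 0.204 to 0.324 in the other libraries. These are ratios of single libraries and have no replicate check.

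Between the labelled groups, no member differed beyond the spread between libraries. Limma on all 9 libraries called 0 of 50 members and 0 of 17199 genes (0%), and the members' adjusted p-values ran from 0.652 to 0.807. At an unadjusted p under 0.05 there were 0 members, against 7.22% of all tested genes. With voom on recovered counts there were likewise 0 genes called and 0 members at an unadjusted p under 0.05. For 48 members, all except Bub3 and Pttg1, the difference was negative, against 50.9% of all genes. The median difference over the members was −0.93 log2-like units, against −0.005 over all genes tested. The groups overlapped for every member, whereas 1.15% of all genes were lower and 1.69% higher with no overlap. The sign over the members is 1 pattern shared by many genes across the same 9 libraries and not 48 separate observations.

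The mean level of Mki67 was 2623 ± 2907 normalised counts in controls (SD, n = 5) against 998 ± 1764 with YAP deleted (SD, n = 4), and the fitted difference on the deposited scale was −1.69 ± 1.24 log2-like units (SE), the most negative of the members. Top2a differed by −1.46 ± 1.23, Ccna2 by −1.20 ± 1.08, Ccnb1 by −1.17 ± 1.11, Cdc20 by −0.91 ± 1.10 and Cdk1 by −0.55 ± 0.72. Each difference was within 1.5 standard errors of 0. The smallest unadjusted p-values belonged to Smc4 (−0.58 ± 0.34), Pttg1 (0.36 ± 0.22) and Smc2 (−0.996 ± 0.63), with limma adjusted p-values of 0.652 to 0.653. Bub3 differed by 0.11 ± 0.14 (limma adjusted p = 0.791). This was the smallest standard error of the members.

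Single libraries set the size of the median difference. Without YAP-deleted LYT008 it was −1.74. In that fit 25 members had an unadjusted p under 0.05, against 1414 of 17843 genes, though 0 members passed after adjustment. Without LYT017 it was −1.40, and without LYT004, LYT005, LYT013 or LYT016 it was −0.54, −0.43, −0.59 and −0.62. Counted by voom, which does not compress low counts as the deposited scale does, it was −1.76. The library codes fall into 4 to 8 and 13 to 17, and the labels do not say what the codes stand for. Within codes 4 to 8 (2 controls, 2 YAP-deleted) the median was −1.65, with 49 negative members, and within codes 13 to 17, which hold both LYT013 and LYT014, it was −0.76. Mki67 differed by −2.67 and −1.48 in these ranges. No member passed after adjustment in either, with limma.

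**Figure D4:**
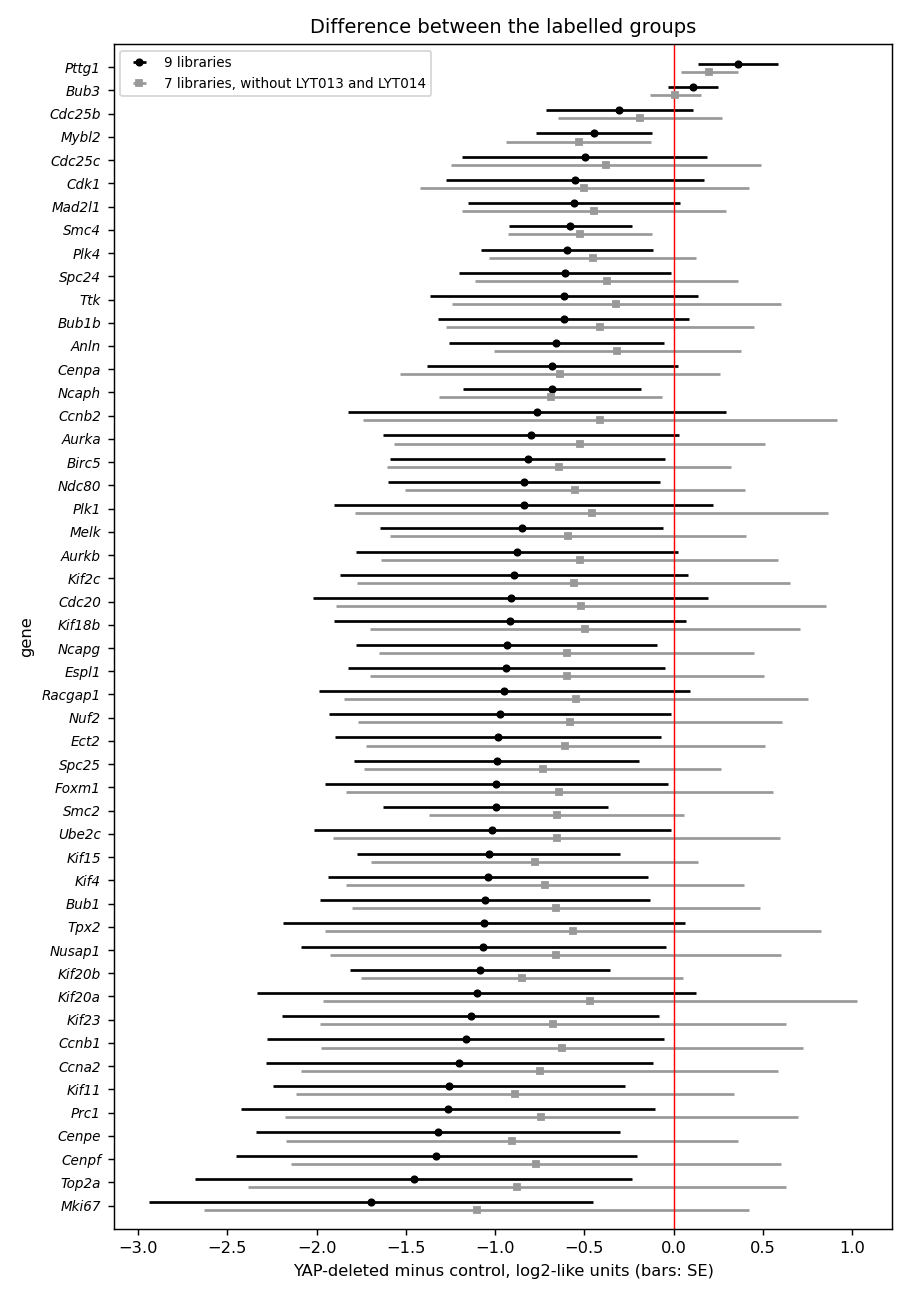
Difference between the libraries labelled YAP-deleted and control for each member (log2-like units, horizontal axis; genes on the vertical axis), with all 9 libraries (black) and without LYT013 and LYT014 (grey); bars are standard errors. Differences run from −1.69 for Mki67 to 0.36 for Pttg1, and no member's adjusted p was under 0.652 with all 9 libraries.

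Without LYT013 and LYT014, 7 libraries remained (4 control, 3 YAP-deleted), and limma called 0 of 50 members against 12 of 17292 genes (0.0694%), 9 of them lower (0.052%) and 3 higher (0.0173%). The members' adjusted p-values ran from 0.889 to 0.993, and 0 had an unadjusted p under 0.05 (6.31% of all genes). The median difference was −0.59 against −0.007 over all genes, with 48 members negative against 51.7% of all genes. No member's groups separated, against 3.46% of genes lower and 3.86% higher. Mki67 differed by −1.10 ± 1.53, Top2a by −0.88 ± 1.51, Smc4 by −0.52 ± 0.40, Bub3 by 0.01 ± 0.14 and Pttg1 by 0.20 ± 0.16 (SE). In these 7 libraries the sign hung on single libraries, which it did not in the 9, where 48 members stayed negative whichever library was left out. Without control LYT005 the median was 0.03 with 19 members negative, and without YAP-deleted LYT016 it was 0.02 with 24 negative. It was −0.12 without LYT004, −0.18 without LYT006, −1.66 without LYT008, −1.12 without LYT015 and −1.19 without LYT017.

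The measured Yap1 level did not order the libraries by their members either. In the 5 libraries with 2530 or more Yap1 counts, the summed members were 72769 in LYT005 and 52790.4 in LYT004, but 6715 in LYT015, 6481 in LYT017 and 5818 in LYT013. In the 4 libraries with 648 or fewer they were 53929 in LYT008 and 18893 in LYT014, but 6962 in LYT006 and 5762 in LYT016. A high and a low sum thus occurred at both Yap1 levels.

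**Figure D5:**
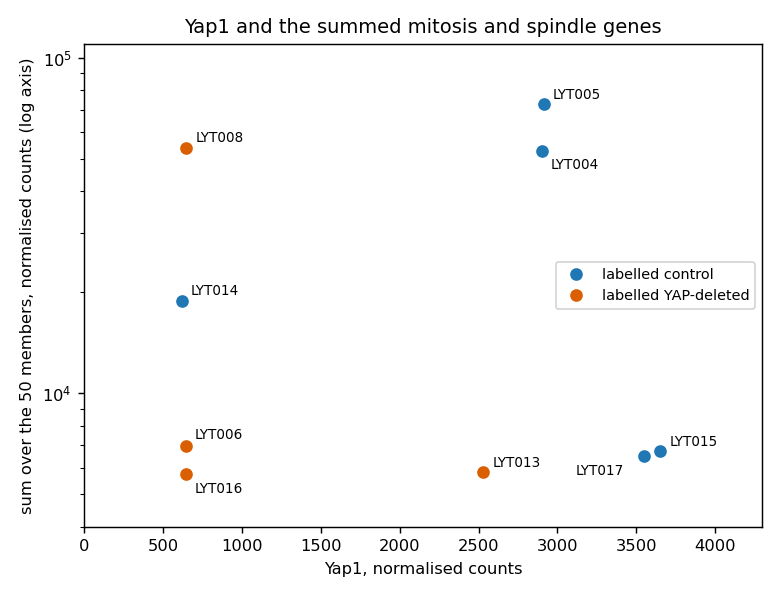
Summed normalised counts of the 50 members (vertical, log axis) against normalised Yap1 counts (horizontal) in the 9 libraries, coloured by label. Libraries at both Yap1 levels lie near the top and near the bottom: LYT008 (648 Yap1 counts) is beside LYT004 (2902), and LYT013 (2530 Yap1 counts) is beside LYT016 (645).

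The other genes of division were read from lists chosen for their function. Of 99 further mitotic genes, limma called 0 in the 9 libraries (0% of all tested genes). A negative difference was found for 85 (median −0.39), against 50.9% of all tested genes. Only 1, the cohesin subunit Smc3, had an unadjusted p under 0.05, against 7.22% of all tested genes. LYT004, LYT005 and LYT008 were the 3 highest libraries for 14 of 15 further kinesin and spindle genes, 32 of 37 further kinetochore and checkpoint genes and 9 of 11 further kinases, cyclins and phosphatases. They were so for 2 of 16 genes of the anaphase promoting complex and its regulators, namely the activator Fzr1 and the inhibitor Fbxo5, and for none of the 14 listed core and adaptor subunits. The median ratio of highest to lowest library was 51.3 for the kinesin and spindle list, 11.4 for the kinetochore list and 8.44 for the kinase list, but 1.95 for the anaphase promoting complex. The last list includes the regulators Fzr1 and Fbxo5. At the RNA level the listed subunits of this complex, the target of Cdc20, spanned less than Cdc20 itself (61.5-fold). The widest of them were Anapc13 (2.88-fold), Cdc27 (2.74-fold) and Anapc11 (2.58-fold). LYT013 alone set these spans. It held 669 normalised counts of Anapc13, against 232 to 294 in the other libraries, and 1111 of Anapc11, against 430 to 610. For Cdc27 it held 592, against 1046 to 1623.

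Condensin and cohesin genes split in the same way. LYT004, LYT005 and LYT008 were highest for 7 of 14, which were condensin subunits and the cohesin genes Rad21, Cdca5 (sororin) and Esco2, whereas Smc1a, Smc3, Stag1, Stag2, Wapl, Pds5a and Pds5b did not have this order. Zwint, a kinetochore linker, was like Pttg1 in its lowest libraries and its highest, LYT013, but not in the full order. It spanned 1.45-fold, under the median of 2.02 over all tested genes. It had 1229, 1171, 1436 and 1460.00 normalised counts in the 4 controls, 1469, 1229.7 and 1575 in the 3 YAP-deleted libraries, 1553 in LYT014 and 1695 in LYT013. LYT004, LYT005 and LYT008 were again the lowest. Of 13 genes of DREAM, MuvB and NF-Y, which bind the CHR and CCAAT elements shown above, 3 had these 3 libraries highest (Lin9, Rbl1 and Tfdp1), and the list's median ratio of highest to lowest was 1.71. Limma called 0 of these 13 genes, and 1, Lin54 (−0.59 log2-like units), had an unadjusted p under 0.05. Of 15 DNA replication genes 12 had LYT004, LYT005 and LYT008 highest, with a median ratio of 5.28, against a median of 61.5 for the 50 members.

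Markers of other liver cells were read in the same libraries. The stellate genes Lrat and Des were abundant in all 9 libraries, at 35209 to 69555 and 5239 to 11983 normalised counts. All 14 macrophage and Kupffer cell markers were above 0, and their sum was 1058, 729.8, 1584 and 1958 in the 4 controls, 1121, 1065 and 2638 in the 3 YAP-deleted libraries, 1608 in LYT014 and 1821 in LYT013. The 3 libraries with the most mitotic transcripts had the 3 lowest macrophage sums, with LYT006 next. With the mean of these markers as a covariate, the members' median difference was −0.44 in the 9 libraries and −0.02 in the 7, where 28 members were negative, and limma called 0 members in both. The covariate follows the same 3 libraries as the members, so this fit cannot tell macrophage content from the members' own pattern by library. The part of the macrophage markers in the result was not tested. All 9 endothelial markers were above 0, and their sum was 1629, 1278, 2246 and 3404 in the 4 controls, 2343, 1943 and 2628 in the 3 YAP-deleted libraries, 4086 in LYT014 and 4206 in LYT013. LYT004, LYT005 and LYT008 had the 3 lowest endothelial sums as well. The part of the endothelial markers in the result was not tested.

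Hepatocyte markers (9 of 9 above 0) summed to 558 to 1128 in the 4 controls, 665 to 938 in the 3 YAP-deleted libraries, 356 in LYT014 and 1266 in LYT013. Cholangiocyte markers (6 of 6) summed to 73.9 to 157 in the 4 controls, 114 to 213 in the 3 YAP-deleted libraries, 48.95 in LYT014 and 47.3 in LYT013, with Epcam under 5 counts in all 9 libraries. T and NK cell markers (6 of 7 above 0, Gzma at 0) summed to 10.7 to 26.4 in the 4 controls, 14.99 to 19.1 in the 3 YAP-deleted libraries, 15.2 in LYT014 and 14.4 in LYT013. Their sums in LYT005 (17.2) and LYT008 (19.1) were within the range of the other libraries, and Cd3e was at 0 in every library except LYT005 (1.23). Neutrophil markers (6 of 6) summed to 0.942 to 2.69 in the 4 controls, 2.55 to 5.84 in the 3 YAP-deleted libraries, 2.41 in LYT014 and 16.2 in LYT013. Erythroid markers (5 of 5) summed to 1.23 to 317 in the 4 controls, 1.15 to 8.93 in the 3 YAP-deleted libraries, 83.5 in LYT014 and 20.9 in LYT013. The part of these cell types in the result was not tested.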

How the data were processed

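Bulk RNA-seq of sorted hepatic stellate cells was analysed in 9 libraries, 5 labelled control and 4 labelled YAP-deleted. Group and library code came from the sample titles and the columns were matched by code, the column headed LYT013.1 being taken as LYT013. Tools named in the submitters' processing notes are sleuth, kallisto 0.44.0 and bcl2fastq 2.20. The extraction protocol in the labels names both a poly-A and a ribosomal depletion preparation, without saying which was used for which library. The deposited values are variance-stabilised, on a log2 scale (log2-like), 1 per gene name and library, and no label or header records how they were made. The table had 35024 rows, 13872 of them at the lowest value, 4.96, in every library; 2 names listed more than once were left out.

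Inverting the inverse hyperbolic sine form of the deposited values gave whole numbers within 0.1 for 100.0% of values in every library. Normalised counts are these counts divided by each library's size factor. Reads that similar transcripts share were divided before deposit and cannot be checked from these values.

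Genes that exceeded the lowest value in 4 or more libraries (3 when 7 libraries were used) were tested with limma 3.58.1 in R 4.3.3: group as the only term, empirical Bayes with trend, two-sided, Benjamini-Hochberg at 0.05 over all genes tested. The log2-like scale understates differences at low counts. Because the deposited unit was not counts, no count model was run, and voom (limma) on the recovered counts, scaled by trimmed means of M-values, was an alternative. Other alternatives were filters, scalings, log2(normalised count + 1), moderation, library weights, covariates, ranges of library codes, leaving out each library, and leaving out LYT013 and LYT014. The procedure was tested on simulated data, in which genes varied independently of each other. The members varied together by library, so that test does not show how well a change in them would be found.

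The members, lists, tests and alternatives were chosen with earlier results of these data known. Values in every library are given for members with a central role in each class, the 3 with the smallest p, and the 3 with the widest and 3 with the narrowest span; genes of other lists were named after their values were seen. Positions and transcript lengths are from GENCODE M21 (GRCm38), and promoter sequences from the RefSeq table on GRCm38.p6, which has no entry for Ccna2, Spc24, Kif20a, Foxm1, Tpx2, Smc4, Cdc25c and Aurkb. Figures were drawn with matplotlib 3.10.9.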

Additional observations from a re-analysis of the deposited data

Results flagged for a closer look

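Within each labelled group, the highest and lowest library were set against the others for the 50 members and Yap1, 102 groups in all, and chance alone would single out about 1 group in 20. The measure was the gap of that library to its nearest neighbour as a share of the group's range, on the deposited log2-like scale, against Dixon's critical value. In the YAP-deleted group LYT008 passed it for 23 members. LYT008 was also the highest of this group for others that did not pass, such as Top2a (3868 normalised counts) and Ccnb1 (1009), whose 3 lower libraries were more spread on that scale. The members that passed included the cell cycle drivers Ccna2 (1634 normalised counts), Ccnb2 (1319), Plk1 (972), Melk (313) and Foxm1 (1551). In the checkpoint and anaphase classes they were Bub1 (439), Bub1b (1186), Mad2l1 (623), Cdc20 (1587) and Ube2c (1004). At the kinetochore they were Cenpe (944), Ndc80 (311), Nuf2 (792) and Spc25 (378). Among kinesins and spindle factors they were Kif11 (848), Kif15 (311), Kif2c (682), Kif20b (559) and Tpx2 (2017). The others were Racgap1 (1972), Birc5 (387), Ncapg (378) and Mki67 (3643). These genes share 1 library, so they are not 23 separate observations. No control library stood apart in this way for any member. For most members LYT004 and LYT005 were both high in the control group, so a gap to the nearest neighbour could not single out either. The lack of flags does not show that the controls were more even: their summed members ran from 6481 (LYT017) to 72769 (LYT005).

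Yap1 stood apart in both groups. In the control group LYT014 held 618 normalised counts, and in the YAP-deleted group LYT013 held 2530. Both values go against the label of their library.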

How the results depend on the processing

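In the 9 libraries, limma called 0 members under each of 23 alternatives, and the median difference over the members stayed negative, from −1.76 (voom) to −0.42 (arrayWeights). Leaving out 1 library at a time gave −1.74 to −0.43. Of 679 values for 30 single members under these alternatives 677 kept their direction, and 2 reversed without passing the threshold: Bub3 was −0.017 within library codes 4 to 8 and Cdc25b was 0.053 with arrayWeights. Some alternatives on the 9 libraries moved the members' unadjusted p-values. Without LYT008, 25 members were under 0.05, against 1414 of 17843 genes. With library code range as covariate 15 members were under 0.05, and 3 were within each range of codes. The shares of all genes in these code settings are not given here, so their counts are not read as results about the members. The smallest limma adjusted p of a single member was 0.422. The number of all genes called was 0 except for 12 without LYT013 and LYT014 and 2 within codes 4 to 8.

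In the 7 libraries, limma called 0 members under each of 10 alternatives. The median difference ran from −1.66 to 0.03 when 1 library was left out. The number of all genes called, 12, moved to 7 with voom, 23 with the macrophage mean and 25 with library code range as covariates, and to between 2 and 11 when 1 library was left out. The cause was not tested. No paired analysis was possible because the labels give the groups no shared replicate numbers. Depth limits the lowest members most: Ccnb1 had 4 reads in LYT013 and Cdc25c 0 in LYT016.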

Other observations

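The fibrillar collagen genes Col1a1 and Col3a1, which activated stellate cells express, were highest in LYT004, LYT005 and LYT008, as were most mitotic genes. Col1a1 had 168118, 159394, 33002 and 23643 normalised counts in the 4 controls, 43449, 89565 and 21307 in the 3 YAP-deleted libraries, 50001 in LYT014 and 24299 in LYT013. Col3a1 had 371689, 392629, 138621 and 141735 normalised counts in the 4 controls, 162590.00, 301945 and 114517 in the 3 YAP-deleted libraries, 174535 in LYT014 and 116575 in LYT013. LYT004 and LYT005 led both genes, with LYT008 as the third. The smooth muscle actin Acta2 had 4414, 4899.9, 789 and 1679 normalised counts in the 4 controls, 498, 2181 and 430.5 in the 3 YAP-deleted libraries, 1781 in LYT014 and 2798 in LYT013, so that LYT013, which was low for nearly all members, was the third highest for Acta2. Reln, a gene of vitamin A storing stellate cells, had 138400.00, 123173, 196422 and 192910.00 normalised counts in the 4 controls, 191517, 121539 and 211506 in the 3 YAP-deleted libraries, 150781 in LYT014 and 89402 in LYT013. LYT013 held the least Reln, and LYT004, LYT005 and LYT008 came next from the bottom. Lrat, the gene of retinoid storage, did not share this order. It was highest in LYT005 (69555 normalised counts), with 44736 in LYT004, 47565 in LYT008 and 44553 in LYT015. The genes of this paragraph were chosen after their values were seen, and no test was made of their relation to the mitotic genes.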
